A study of Homo sapiens with 6 samples.

Results

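The interferon, JAK-STAT and antigen presentation genes of this study are 35 gene rows, chosen by symbol, among the 6339 rows of the authors' deposited expression table. A row belonged to the set if it named a single gene whose symbol starts with IFI, IFNAR, IFNGR, IRF, OAS, GBP, HLA-, SOCS, or STAT or JAK and a digit, or was 1 of a short list of named genes such as MX2, ISG20, TAP2, CIITA, NLRC5 and TYK2. The rule matched symbols only and used no measured value, but it was drawn up with earlier results of these data known. STAT genes, ISG15, MX1, TAP1, B2M and RSAD2 were not analysed here. The study compared ME-1 cells given AI-10-49 at 1 µM for 6 h (3 libraries) with ME-1 cells given the solvent DMSO for 6 h (3 libraries), each from an independent experiment. ME-1 is an established human acute myeloid leukaemia line with inv(16), so cells of both groups carry the fusion of CBFB with MYH11 that makes the CBFβ-SMMHC protein. AI-10-49 is a small molecule made to bind CBFβ-SMMHC and free RUNX1 from it. A single cell line stands behind both groups, so the libraries show how this line varies and not how patients differ.

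Interferons bind receptors on the cell surface whose attached Janus kinases (JAK1, JAK2, TYK2) phosphorylate STAT transcription factors. STAT complexes and the interferon regulatory factors (IRF) then switch on antiviral effector genes, often through a promoter sequence called the interferon response element, while SOCS proteins dampen the signal. The same pathway sets how many MHC molecules a cell displays. MHC class I carries peptides of the cell's own proteins, MHC class II carries peptides from taken-up material, and the coactivators NLRC5 and CIITA drive the genes of each. Myeloid cells and myeloid leukaemias often express both.

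With AI-10-49, 13 of the 34 genes that could be tested rose and 19 fell. Most antigen presentation genes were lower. Of 10 tested genes 8 fell, led by CIITA, where 49.1% of all tested rows fell. The other 2, HLA-DRA and HLA-C, did not pass and changed sign under a form of quantile normalization. Interferon-stimulated effectors divided, with ISG20, IFIH1 and IFIT2 higher and the IFITM and OAS genes and IFI6 lower. Among signalling genes IRF7, IRF2, IRF1, IFNGR1, JAK2, SOCS5 and SOCS6 rose, and IRF5, IFNAR2 and TYK2 fell. Expression is given as FPKM, in which fragments are divided by transcript length and by the mapped total, so levels are relative to each library's total. A gene that rose or fell passed an adjusted p of 0.05 in limma, a linear model fitted to log2(FPKM + 1) over the 6230 rows that averaged 1 FPKM or more in either group. Fold changes on that log2 scale run AI-10-49 minus DMSO, and they understate the change of genes of low FPKM.

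These counts, and the adjusted p of each single gene, have to be read against the table, whose rows seem to have been picked for a difference between these libraries. A row picked that way is likely to pass, so a small adjusted p is not separate support for a change. Of all tested rows 95.3% passed, 46.2% higher and 49.1% lower. Of the 34 genes 94.1% passed, 38.2% higher and 55.9% lower, so the number that passed lies near the background and says nothing particular about these genes. Groups did not overlap in any of the 35 genes, nor in 96.2% of all tested rows. The median log2 fold change was -0.44 for the 34 genes and -0.28 for all tested rows. Quantile normalization moved the median of all rows by 0.22, to -0.06, and the median of the 34 genes to -0.28. A log2 fold change of at least 1 in either direction was seen in 6 genes (17.6%) and in 13.4% of all tested rows. With 3 libraries against 3, an exact two-sided permutation test of any single gene cannot give a p below 0.1.

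**Figure D1:**
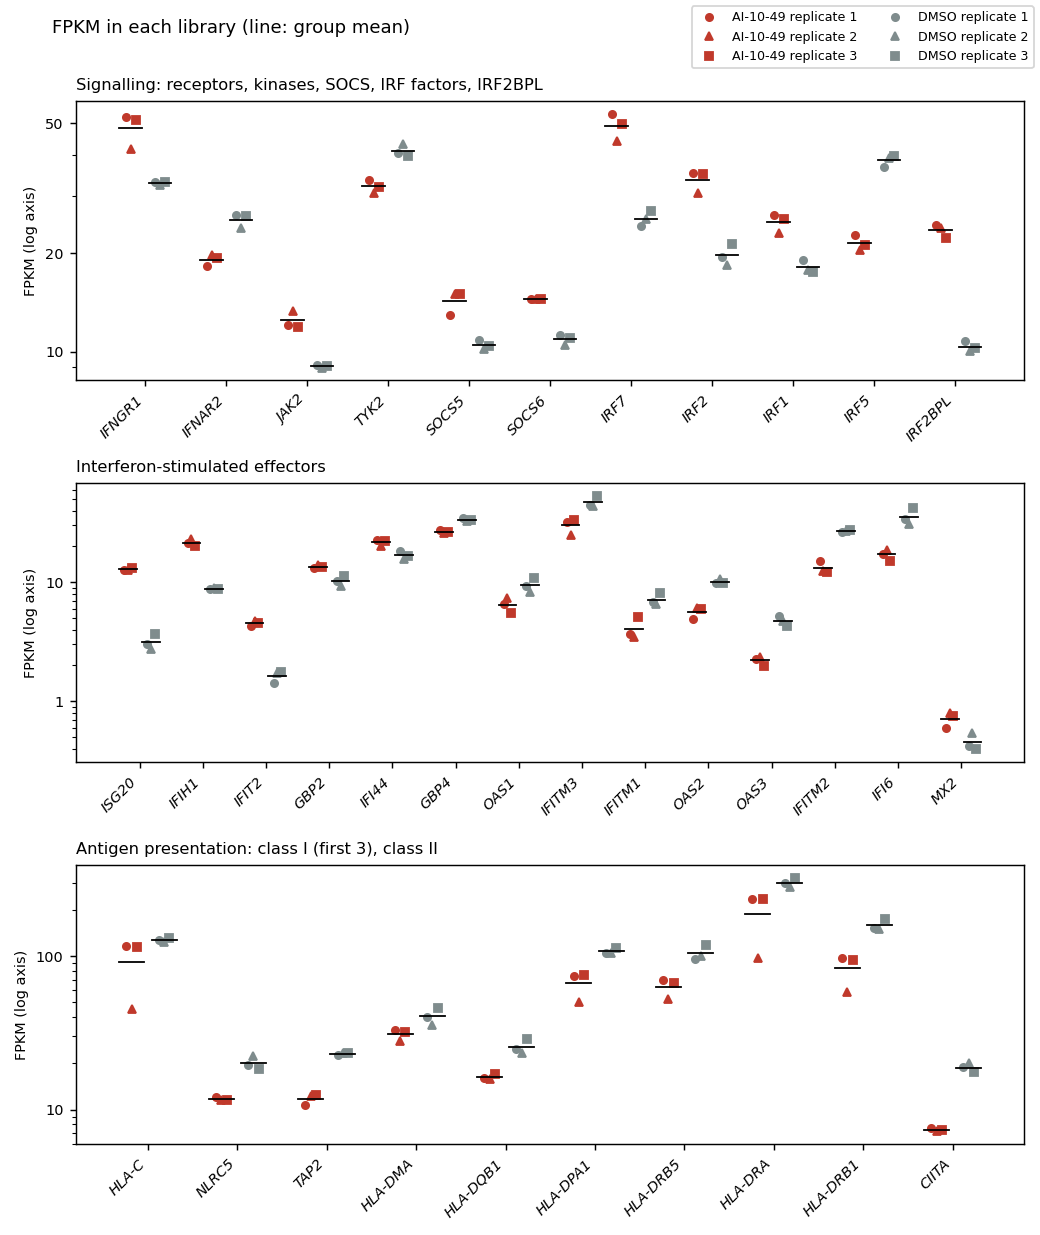
FPKM on a log axis of all 35 genes in the 3 AI-10-49 libraries (red, left of each pair) and the 3 DMSO libraries (grey, right), with symbols for the replicate number and a line at each group mean. No gene has overlapping groups, which also holds for 96.2% of all tested rows. The AI-10-49 replicate 2 triangle lies below the other red symbols in the abundant HLA genes.

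AI-10-49 replicate 2 stood apart from its group at high FPKM, which touches the abundant HLA genes. In each of the 294 rows averaging 100 FPKM or more in AI-10-49 replicates 1 and 3 it gave the lowest value of the group, and its highest value in the table was 159 FPKM, against 1843 and 1877 FPKM in replicates 1 and 3. Among the genes described here, 7 averaged at least 40 FPKM in replicates 1 and 3, a limit set after the values were seen. In these 7 genes replicate 2 read 0.393 to 0.855 of the mean of the other replicates, lowest in HLA-C and HLA-DRA. In the other 27 tested genes it read 0.764 to 1.20 of that mean and was below it in 14. Fold changes printed for genes of at least 40 FPKM are therefore given with and without this library. The depth of the libraries is unknown, since FPKM hold no counts.

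**Figure D2:**
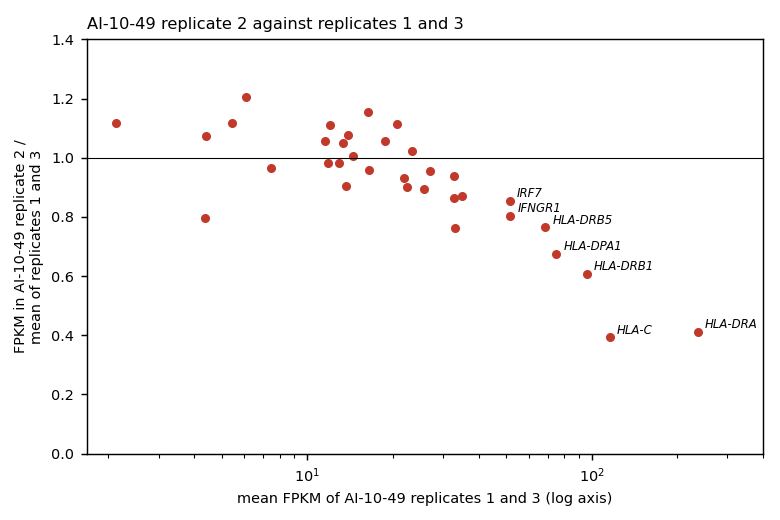
FPKM in AI-10-49 replicate 2 divided by the mean of AI-10-49 replicates 1 and 3 (vertical axis) against that mean (horizontal log axis), 1 point per tested gene. The 7 genes of at least 40 FPKM are named and lie between 0.393 and 0.855, with HLA-C and HLA-DRA lowest.

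Cell identity was checked on marker lists. Of 16 myeloid markers 8 had a row, among them CEBPA, SPI1, KIT, LYZ and CD33, and they summed to 280, 193 and 269 FPKM in AI-10-49 replicates 1, 2 and 3 and to 414 to 460 FPKM with DMSO. Of these SPI1 was the most abundant, and its 73.4 FPKM in AI-10-49 replicate 2, against 137 and 133 FPKM in AI-10-49 replicates 1 and 3, makes up most of that gap. Taken singly, 7 of the 8 fell and SPI1 did not pass, where 49.1% of all tested rows fell. The largest log2 fold changes were -1.58 in CEBPA and -1.04 in KIT, or -1.48 and -0.97 without AI-10-49 replicate 2. Of 23 markers of other lineages 7 had a row. The B cell markers CD79A and CD79B summed to 8.72 to 10.6 FPKM with AI-10-49 and 24.8 to 29.96 FPKM with DMSO, and the T cell markers CD3D and CD3E to 16.9 to 17.2 FPKM with AI-10-49 and 32.6 to 34.3 FPKM with DMSO. PECAM1 and VWF summed to 6.71 to 7.19 FPKM with AI-10-49 and 11.7 to 12.5 FPKM with DMSO. TCF4, listed as a dendritic marker, stood at 32.2 to 42.0 FPKM with AI-10-49 and 11.9 to 12.3 FPKM with DMSO. No marker with a row was at 0 in any library. Both groups are the single line ME-1. These rows were thus read as RNA of that line and not as numbers of B, T, endothelial or dendritic cells. Whether the marker shifts are linked to the results below was not tested. In bulk RNA, a change in some cells of the culture and a change in all of them cannot be told apart.

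Both receptor genes with a row changed, in opposite directions. IFNGR1, which encodes the ligand-binding chain of the interferon gamma receptor, stood at 52.1, 41.5 and 51.1 FPKM with AI-10-49 and at 33.0, 32.3 and 33.1 FPKM with DMSO. The AI-10-49 libraries were higher by 1.47-fold in the means (log2 fold change 0.54 ± 0.10 SE, limma adjusted p = 0.000181). Without AI-10-49 replicate 2 the log2 fold change was 0.64. IFNAR2, a chain of the type I interferon receptor, stood at 18.2, 19.8 and 19.3 FPKM with AI-10-49 and at 26.2, 23.8 and 26.0 FPKM with DMSO. Here the AI-10-49 libraries were lower by 1.33-fold in the means (log2 fold change -0.39 ± 0.07 SE, limma adjusted p = 0.000132).

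Of the receptor-bound kinases with a row, 1 rose and 1 fell. JAK2, which works at the interferon gamma receptor and at many cytokine receptors, averaged 12.5 ± 0.77 FPKM with AI-10-49 and 9.01 ± 0.08 FPKM with DMSO (SD, n = 3 each), a log2 fold change of 0.42 ± 0.07 (SE). TYK2, which works at the type I interferon receptor, averaged 32.0 ± 1.46 FPKM with AI-10-49 and 41.1 ± 1.91 FPKM with DMSO (SD, n = 3 each), a log2 fold change of -0.35 ± 0.08 (SE). These are changes of 1.38-fold up and 1.28-fold down. The suppressor genes SOCS5 and SOCS6 are less studied members of a family whose products bind activated receptors and kinases. SOCS5 averaged 14.3 ± 1.22 FPKM with AI-10-49 and 10.5 ± 0.33 FPKM with DMSO, and SOCS6 averaged 14.5 ± 0.04 FPKM with AI-10-49 and 10.9 ± 0.40 FPKM with DMSO (SD, n = 3 each). Both rose by less than 0.5 on the log2 scale, 0.42 for SOCS5 and 0.38 for SOCS6, with limma adjusted p of 0.000125 and 6.65e-05.

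Of the 4 interferon regulatory factors, 3 rose and 1 fell. IRF7, the factor that amplifies type I interferon production, stood at 53.4, 44.0 and 49.6 FPKM with AI-10-49 and at 24.1, 25.5 and 26.9 FPKM with DMSO. Its 1.92-fold rise gave a log2 fold change of 0.91 ± 0.09 (SE, limma adjusted p = 8.31e-07), or 0.98 without AI-10-49 replicate 2. IRF2, which binds the same promoter sequences as IRF1 and can oppose it, stood at 35.1, 30.5 and 34.8 FPKM with AI-10-49 and at 19.5, 18.5 and 21.4 FPKM with DMSO. That is 1.69-fold higher, and the lowest AI-10-49 library lay above the highest DMSO library. Groups were likewise apart in 96.2% of all tested rows. IRF1, an early response gene of interferon gamma and NF-kB signals, rose less, at 26.1, 23.1 and 25.4 FPKM with AI-10-49 and 19.1, 17.8 and 17.5 FPKM with DMSO (log2 fold change 0.43 ± 0.07 SE). IRF5, a factor of inflammatory cytokine genes downstream of Toll-like receptors, went the other way. It stood at 22.7, 20.4 and 21.3 FPKM with AI-10-49 and at 36.8, 39.1 and 39.6 FPKM with DMSO. This 1.80-fold fall (log2 fold change -0.82 ± 0.07 SE, limma adjusted p = 3.42e-07) made IRF5 the highest of the 4 with DMSO and the lowest with AI-10-49, where IRF7 was highest. IRF2BPL, whose product belongs to a small family of IRF2-binding proteins, rose 2.27-fold to 23.5 ± 1.05 FPKM with AI-10-49, against 10.4 ± 0.38 FPKM with DMSO (SD, n = 3 each).

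**Figure D3:**
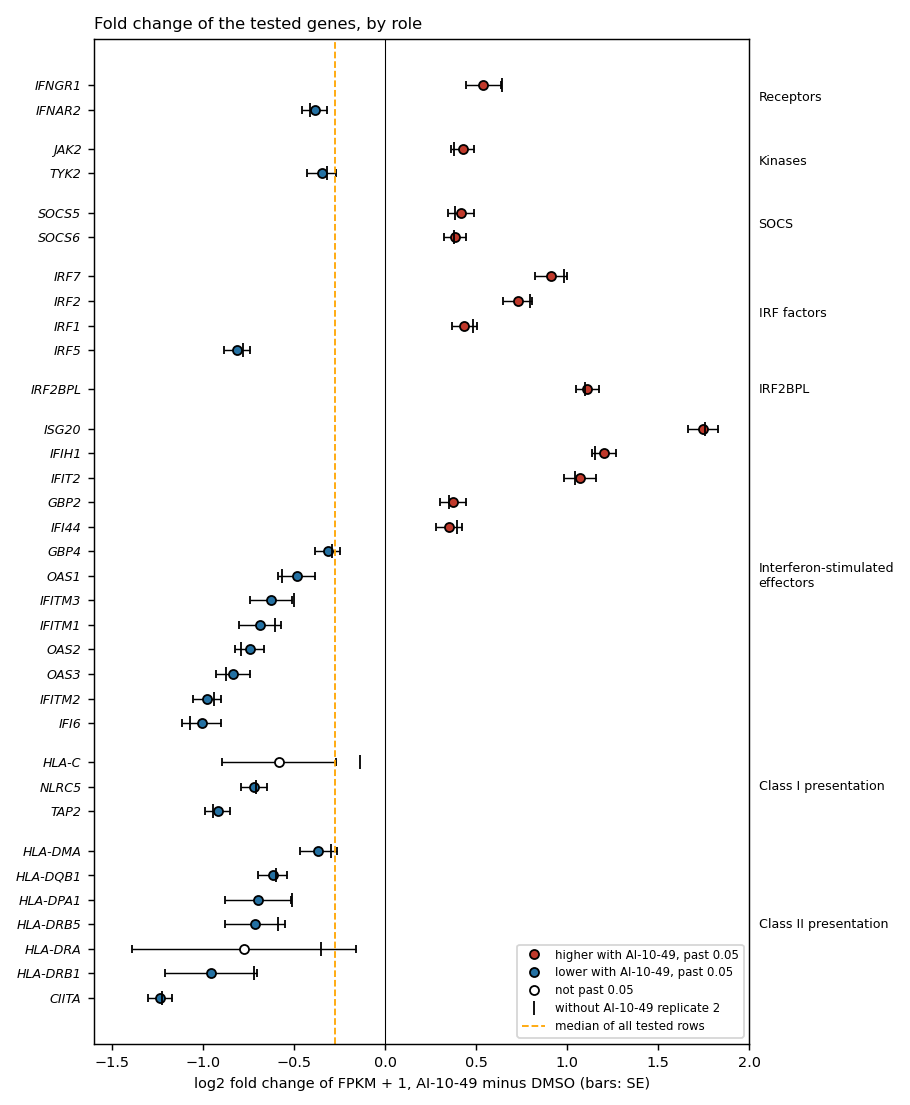
Log2 fold change of FPKM + 1 (AI-10-49 minus DMSO) with its SE for the 34 tested genes, grouped by role, red where higher, blue where lower and white where the adjusted p did not pass 0.05. Upright ticks give the value without AI-10-49 replicate 2 and the dashed line the median of all tested rows (-0.28). Presentation genes lie left of 0, although HLA-DRA and HLA-C cross it under a form of quantile normalization, effectors and signalling genes on both sides, and the ticks of HLA-C and HLA-DRA lie far from their points.

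Interferon-stimulated effectors did not move as a block. Of 14 such genes 13 were tested, 5 rose and 8 fell, with a median log2 fold change of -0.49. Of all tested rows 46.2% rose and 49.1% fell. ISG20, an exonuclease that degrades viral RNA, changed most of the 35 genes, at 12.6, 12.7 and 13.3 FPKM with AI-10-49 and 3.01, 2.77 and 3.66 FPKM with DMSO. This was 4.08-fold higher in the means (log2 fold change 1.75 ± 0.08 SE, limma adjusted p = 1.61e-09), a value above 98.9% of all tested rows. IFIH1 encodes MDA5, a sensor of long double-stranded RNA. It stood at 21.2, 23.1 and 20.2 FPKM with AI-10-49 and at 8.76, 8.86 and 8.73 FPKM with DMSO, which was 2.45-fold higher (log2 fold change 1.20 ± 0.07 SE). IFIT2, which binds RNA and has been tied to cell death, stood at 4.31, 4.74 and 4.51 FPKM with AI-10-49 and at 1.41, 1.72 and 1.77 FPKM with DMSO, 2.76-fold higher. In each of these 3 genes the libraries of a group lay close together and far from the other group. GBP2, a guanylate-binding protein of interferon gamma responses, rose by 0.37 and IFI44 by 0.35 on the log2 scale.

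All 3 IFITM genes fell. Their products sit in membranes and hinder the entry of viruses, and the genes lie side by side on chromosome 11. IFITM2 stood at 15.1, 12.4 and 12.3 FPKM with AI-10-49 and at 26.6, 27.1 and 27.3 FPKM with DMSO (log2 fold change -0.98 ± 0.08 SE, limma adjusted p = 1.39e-07). IFITM3, the most abundant effector here, averaged 30.3 ± 4.53 FPKM with AI-10-49 and 47.2 ± 5.32 FPKM with DMSO, and IFITM1 averaged 4.07 ± 0.86 FPKM with AI-10-49 and 7.13 ± 0.85 FPKM with DMSO (SD, n = 3 each). The log2 fold change of IFITM3 was -0.63, or -0.50 without AI-10-49 replicate 2 and -0.53 under quantile normalization. The 3 sequences are alike, and reads may have been split between them, so their values are not independent.

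The 3 oligoadenylate synthetase genes, neighbours on chromosome 12 whose products start RNA decay through RNase L, fell as well. OAS3 stood at 2.28, 2.37 and 1.96 FPKM with AI-10-49 and at 5.21, 4.71 and 4.25 FPKM with DMSO, 2.14-fold lower (log2 fold change -0.84 ± 0.09 SE). OAS2 fell by 0.75 ± 0.08 and OAS1 by 0.49 ± 0.10 (SE) on the log2 scale. IFI6, which encodes a mitochondrial and endoplasmic reticulum protein that counters cell death, stood at 17.4, 18.8 and 15.1 FPKM with AI-10-49 and at 33.8, 30.7 and 42.5 FPKM with DMSO. It fell 2.08-fold in the means, less than the 2.14-fold of OAS3. On the log2(FPKM + 1) scale its fall was the largest among effectors (-1.01 ± 0.11 SE, limma adjusted p = 2.25e-06). GBP4 changed least, at 26.7 ± 0.81 FPKM with AI-10-49 and 33.5 ± 1.26 FPKM with DMSO (SD, n = 3 each). MX2, a GTPase that restricts viruses, was below the filter, at 0.597, 0.790 and 0.757 FPKM with AI-10-49 and 0.421, 0.541 and 0.393 FPKM with DMSO. With no filter it did not pass (limma adjusted p = 0.0518).

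Promoter sequence was set beside these directions, since effectors that rose and effectors that fell are both known as interferon targets. RefSeq promoter windows on GRCh38.p14, a later build than the hg19 named for the reads, were matched by symbol for 23 of the 35 genes, and the 250 bases before each annotated start were searched on both strands. The core letters of the interferon response element, GAAA, any 2 bases and again GAAA, were found for 3 of 8 matched genes that rose (ISG20, IFIH1 and IFI44) and for 5 of 14 that fell (IFI6, IFITM1, IFITM3, OAS3 and TAP2), against 3.02% of all 35116 windows. Since some genes have several starts, that is 4 of 13 windows of genes that rose and 5 of 18 windows of genes that fell. Genes with these letters thus stood on both sides. A match of letters is a description and does not show that a factor binds there. The windows of 2 genes that rose and 3 that fell show this. Capitals mark every match to the searched letters, which were the element above, TTCNNNGAA (STAT), TGTGGT (RUNX), CACGTG (E box), GGGA, any 2 bases and TTCC (NF-kB) and CTGATTGG (the Y box of class II promoters).
ISG20 (chr15:88638766-88639015, plus strand): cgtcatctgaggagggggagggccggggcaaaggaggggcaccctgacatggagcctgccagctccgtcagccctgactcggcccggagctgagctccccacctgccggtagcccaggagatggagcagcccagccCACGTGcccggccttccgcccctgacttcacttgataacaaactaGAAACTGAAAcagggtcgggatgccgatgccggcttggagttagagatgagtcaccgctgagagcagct
IFIH1 (chr2:162318685-162318934, minus strand): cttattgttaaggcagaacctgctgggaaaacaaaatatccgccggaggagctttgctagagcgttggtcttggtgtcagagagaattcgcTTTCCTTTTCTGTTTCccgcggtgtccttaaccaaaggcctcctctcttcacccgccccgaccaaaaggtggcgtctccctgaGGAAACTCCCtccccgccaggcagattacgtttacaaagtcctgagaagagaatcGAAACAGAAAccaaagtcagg
IFI6 (chr1:27672193-27672442, minus strand): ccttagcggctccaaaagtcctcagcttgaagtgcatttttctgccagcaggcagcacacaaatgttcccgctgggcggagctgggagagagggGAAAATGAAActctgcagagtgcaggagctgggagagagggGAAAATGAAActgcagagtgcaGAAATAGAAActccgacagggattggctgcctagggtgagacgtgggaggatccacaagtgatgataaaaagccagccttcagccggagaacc
OAS3 (chr12:112938224-112938473, plus strand): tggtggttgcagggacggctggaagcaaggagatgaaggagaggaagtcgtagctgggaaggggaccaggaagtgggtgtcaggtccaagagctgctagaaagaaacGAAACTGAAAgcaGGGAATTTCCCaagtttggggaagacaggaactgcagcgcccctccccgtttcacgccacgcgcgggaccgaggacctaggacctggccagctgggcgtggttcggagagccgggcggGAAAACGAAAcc
TAP2 (chr6:32838740-32838989, minus strand): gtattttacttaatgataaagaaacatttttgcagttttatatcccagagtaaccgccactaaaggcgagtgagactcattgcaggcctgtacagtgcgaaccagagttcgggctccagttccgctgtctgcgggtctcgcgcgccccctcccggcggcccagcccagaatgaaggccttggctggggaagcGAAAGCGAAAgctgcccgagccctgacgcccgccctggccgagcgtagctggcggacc
In ISG20 the capitals nearest the start are the response element, 69 to 60 bases before it, and the others an E box. IFIH1 holds the element in 3 places, of which the first pair overlap and lie on the opposite strand, with an NF-kB match between them and the last. The IFI6 window holds it in 3 places between 156 and 84 bases before the start. In OAS3 it stands 143 to 134 and again 12 to 3 bases before the start, and the run of capitals between is an NF-kB match on both strands that overlaps itself. TAP2 holds it once, 58 to 49 bases before the start.

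The other searched letters were less frequent. A STAT element was found for IRF1 among the genes that rose, 124 to 116 bases before its start, and for IFITM1 and OAS1 among those that fell. That is 1 of 13 and 2 of 18 windows, against 6.57% of all windows. RUNX letters were found for IFITM1 and in a single window of IRF5, both of which fell, and for no gene that rose. That is 2 of 18 windows of genes that fell and 0 of 13 of genes that rose, against 11% of all windows. With so few windows, no link between RUNX letters and direction is read from this. The E box was found for ISG20 alone, in 1 of 13 windows of genes that rose, against 6.34%. NF-kB letters were found for IFIH1, GBP4 and OAS3, in 1 of 13 windows of genes that rose and 2 of 18 of genes that fell, against 1.4%.

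Of 7 MHC class II genes 6 fell, and the other, HLA-DRA, did not pass and changed sign under quantile normalization. Of all tested rows 49.1% fell. The median log2 fold change of the 7 genes was -0.72, or -0.59 without AI-10-49 replicate 2 and -0.30 under quantile normalization. For all tested rows the median was -0.28, or -0.06 under quantile normalization. CIITA, the coactivator without which class II genes are hardly transcribed, stood at 7.56, 7.21 and 7.36 FPKM with AI-10-49 and at 18.9, 20.03 and 17.5 FPKM with DMSO. The fall of 2.55-fold was the largest of the 35 genes (log2 fold change -1.24 ± 0.07 SE, limma adjusted p = 4.46e-09), and only 4.21% of tested rows had a lower value. Replicate 2 did not stand apart in this gene. Of the 6 class II HLA genes 5 fell. HLA-DRB1, a beta chain of HLA-DR, stood at 97.8, 58.4 and 94.3 FPKM with AI-10-49 and at 153, 151 and 174 FPKM with DMSO. Its log2 fold change was -0.96 ± 0.25 (SE, limma adjusted p = 0.00290), -0.72 without AI-10-49 replicate 2 and -0.45 under quantile normalization, which forces the same distribution on every library. HLA-DPA1, the alpha chain of HLA-DP, stood at 74.8, 50.5 and 75.1 FPKM with AI-10-49 and at 105, 105 and 113 FPKM with DMSO, with a log2 fold change of -0.70 ± 0.18 (SE) that was -0.51 without that library and -0.30 under quantile normalization.

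HLA-DQB1, the beta chain of HLA-DQ, was less abundant and showed no such gap between replicates. It stood at 16.0, 15.9 and 17.1 FPKM with AI-10-49 and at 24.8, 23.3 and 28.9 FPKM with DMSO, 1.57-fold lower (log2 fold change -0.62 ± 0.08 SE, limma adjusted p = 1.08e-05). HLA-DRB5, another beta chain of HLA-DR, had a log2 fold change of -0.72 ± 0.17 (SE), which was -0.59 without AI-10-49 replicate 2 and -0.30 under quantile normalization. HLA-DMA, part of the editor that loads peptides onto class II, fell by 0.37 ± 0.10 (SE) on the log2 scale. Its log2 fold change was -0.30 without AI-10-49 replicate 2 and -0.28 under quantile normalization. HLA-DRB1 and HLA-DRB5 are close copies that differ between people, so reads may have been split between them or lost against the reference. HLA-DRA, the alpha chain of HLA-DR, was the most abundant of the 35 genes and ranked 49 of 6339 rows by its DMSO mean. It stood at 236, 97.1 and 235 FPKM with AI-10-49 and at 298, 282 and 326 FPKM with DMSO. The groups did not overlap, nor did they in 96.2% of all tested rows. The spread between AI-10-49 libraries was so wide that the log2 fold change of -0.78 ± 0.61 (SE) did not pass (limma adjusted p = 0.231). Without AI-10-49 replicate 2 it was -0.35 with a limma adjusted p of 0.00197. Under quantile normalization it was 0.07 and did not pass (limma adjusted p = 0.443), and under quantile normalization without AI-10-49 replicate 2 it was -0.03. So the direction of HLA-DRA depends on the scaling, while the 5 that fell and CIITA kept theirs under each alternative run, with the smaller sizes given above. Summed over the 6 class II HLA genes, FPKM came to 528, 303 and 521 with AI-10-49 and to 717, 696 and 806 with DMSO. HLA-DRA, whose direction depends on the scaling, is the largest part of each sum, and the sums were not repeated under quantile normalization.

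Class II promoters carry a conserved Y box, and its letters CTGATTGG, a motif added after the values were seen, were found in the windows of HLA-DRB1, HLA-DRB5, HLA-DQB1 and HLA-DMA, against 3.81% of all windows. They were also found in HLA-C. The window of HLA-DQB1, in the reference sequence, shows its place.
HLA-DQB1 (chr6:32666658-32666907, minus strand): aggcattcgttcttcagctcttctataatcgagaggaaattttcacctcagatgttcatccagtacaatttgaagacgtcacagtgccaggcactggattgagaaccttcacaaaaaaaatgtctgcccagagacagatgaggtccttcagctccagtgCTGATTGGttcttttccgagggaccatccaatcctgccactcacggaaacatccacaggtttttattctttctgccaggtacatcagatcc
The capitals are the Y box, 91 to 84 bases before the start. HLA-DPA1 held no match in either of its windows.

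The 3 class I genes with a row gave 2 falls and 1 that did not pass. TAP2, a subunit of the transporter that carries peptides into the endoplasmic reticulum, stood at 10.7, 12.2 and 12.4 FPKM with AI-10-49 and at 22.7, 23.4 and 23.3 FPKM with DMSO. This 1.97-fold fall (log2 fold change -0.92 ± 0.07 SE, limma adjusted p = 7.36e-08) did not rest on any single library. NLRC5, the class I coactivator, stood at 12.1, 11.6 and 11.5 FPKM with AI-10-49 and at 19.6, 22.2 and 18.4 FPKM with DMSO, 1.71-fold lower (log2 fold change -0.72 ± 0.07 SE). HLA-C, a classical class I heavy chain, stood at 117, 45.5 and 115 FPKM with AI-10-49 and at 128, 124 and 132 FPKM with DMSO. Its log2 fold change of -0.58 ± 0.31 (SE) did not pass (limma adjusted p = 0.0890), and was -0.14 without AI-10-49 replicate 2 (limma adjusted p = 0.0505). Its direction turned to 0.10 under quantile normalization without that library (limma adjusted p = 0.0467), so no change is given for HLA-C. HLA-C is close in sequence to other class I genes, which were not analysed here. Rows that name several genes held IFI30, a thiol reductase of class II processing, together with PIK3R2, and TAPBP, the class I loading factor tapasin, together with RGL2 and ZBTB22. The IFI30 and PIK3R2 row averaged 7.68 ± 1.17 FPKM with AI-10-49 and 13.3 ± 0.10 FPKM with DMSO, and the TAPBP row averaged 54.1 ± 1.71 FPKM with AI-10-49 and 73.0 ± 1.80 FPKM with DMSO (SD, n = 3 each). These values cannot be assigned to 1 gene.

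Other genes of these pathways came from 7 lists of 183 distinct genes, of which 83 were tested, 35 higher and 45 lower. These counts lie near the shares of all tested rows, 46.2% higher and 49.1% lower. The counts of each list below have to be read beside the same shares. The lists were drawn up with earlier results of these data known. Genes that load class I and supply its peptides had 11 of 12 tested genes lower and none higher, where 49.1% of all tested rows were lower. Their median log2 fold change was -0.68, -0.53 without AI-10-49 replicate 2, when all 12 were called lower, and -0.43 under quantile normalization. UBE2L6, the conjugating enzyme of ISG15, stands on 2 of the lists and is not itself a loading factor. It stood at 31.1, 29.0 and 34.0 FPKM with AI-10-49 and at 64.7, 60.9 and 67.7 FPKM with DMSO (log2 fold change -1.02). SEC61A1, of the translocation channel, changed by -0.998 and PSME2, an interferon-inducible proteasome activator, by -0.94, or -0.86 and -0.83 without that library and -0.60 and -0.56 under quantile normalization. The peptide-trimming genes ERAP1 (-0.72) and ERAP2 (-0.65) and the immunoproteasome genes PSMB8 (-0.64), PSMB9 (-0.47) and PSMB10 (-0.38) also fell, and were named after their values were seen. PSMB8 and PSMB10 came to -0.46 and -0.28 without AI-10-49 replicate 2, and to only -0.15 and -0.21 under quantile normalization.

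Other interferon-stimulated genes divided like the effectors above, with 16 lower, 8 higher and 1 not passing among 25 tested of 54 listed. TRIM14, an adaptor of antiviral signalling, stood at 1.55, 1.48 and 1.28 FPKM with AI-10-49 and at 6.80, 6.70 and 6.30 FPKM with DMSO (log2 fold change -1.64). CMPK2, a nucleotide kinase that lies beside RSAD2, stood at 6.35, 6.72 and 6.91 FPKM with AI-10-49 and at 18.4, 17.7 and 18.9 FPKM with DMSO (log2 fold change -1.34). XAF1, a pro-apoptotic gene, stood at 24.9, 24.4 and 23.6 FPKM with AI-10-49 and at 7.07, 7.67 and 6.45 FPKM with DMSO (log2 fold change 1.65). TRIM14 and CMPK2 were lower and XAF1 was higher in every AI-10-49 library than in any DMSO library. Groups did not overlap in 96.2% of all tested rows either, so this does not set them apart.

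Genes that sense nucleic acids and relay the signal to interferon gave 10 higher and 8 lower of 18 tested, with a median log2 fold change of 0.31. The largest changes were in TNFAIP3 (2.26) and CYLD (0.83), deubiquitinases that restrain NF-kB, and in NLRP3 (1.05), an inflammasome sensor. NLRP3 stood at 10.8, 12.6 and 10.7 FPKM with AI-10-49 and at 4.90, 4.77 and 5.15 FPKM with DMSO. Of adaptors for RNA, DNA and Toll-like receptor signals, MAVS (-0.75), TMEM173, which encodes STING (-0.51), MYD88 (-0.53) and TICAM1 (-0.29) fell. MB21D1 (0.78), which encodes the DNA sensor cGAS, and the kinase gene TBK1 (0.34) rose. Further relay genes went both ways, with AZI2 (0.81), IRAK4 (0.70), TANK (0.64) and TRAF6 (0.58) higher and IRAK1 (-0.42) and TRAF3 (-0.27) lower. TMEM173, the most abundant of these, came to -0.42 without AI-10-49 replicate 2 and to -0.19 under quantile normalization. The adaptors, MB21D1, TBK1 and the further relay genes were named after their values were seen.

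Cytokine receptors and ligands of the JAK-STAT pathway gave 6 higher and 5 lower of 11 tested. CSF2RB, the shared beta chain of the receptors for interleukin-3, interleukin-5 and GM-CSF, stood at 10.4, 10.3 and 9.61 FPKM with AI-10-49 and at 23.3, 23.4 and 24.8 FPKM with DMSO (log2 fold change -1.16). IL21R, a receptor of the common gamma chain family, stood at 4.70, 5.74 and 4.81 FPKM with AI-10-49 and at 1.12, 1.00 and 0.908 FPKM with DMSO (log2 fold change 1.59). OSM, a cytokine of the interleukin-6 family and itself a STAT5 target, rose by 1.13 on the log2 scale. Of 5 tested inhibitors other than SOCS genes, PTPRC was among 3 that rose, and CISH (-0.84) and USP18 (-0.52) fell. The log2 fold change of PTPRC was 0.61, or 0.81 without AI-10-49 replicate 2 and 0.93 under quantile normalization. CISH, a STAT5 target of the SOCS family by sequence, stood at 7.73, 7.12 and 8.35 FPKM with AI-10-49 and at 14.5, 14.1 and 15.2 FPKM with DMSO.

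STAT target genes gave 4 higher, 3 lower and 1 not passing of 8 tested. The list does not record whether a STAT factor raises or lowers each gene, so no STAT activity was read from these directions. CDKN1A (2.36, or 2.43 without AI-10-49 replicate 2), a cell cycle inhibitor, and BCL6 (1.81), a transcriptional repressor, rose with OSM, and CISH fell with the kinase genes PIM1 (-0.50) and PIM2 (-0.44), both picked out once their values were known. Factors of class II loading and transcription gave 5 higher and 3 lower of 8 tested. CREB1 (0.65) and NFYC (0.60, or 0.72 without AI-10-49 replicate 2), which encode DNA-binding factors of class II promoters, rose. The other subunits of the factor NF-Y, named after their values were seen, divided, with NFYB higher (0.27) and NFYA lower (-0.29). RFXAP (0.36) and CD40 (0.47) also rose and CTSS (-0.41) fell. CTSD, a lysosomal protease, fell by 0.62 on the log2 scale, with a value of -0.45 without AI-10-49 replicate 2 and -0.20 under quantile normalization.

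**Figure D4:**
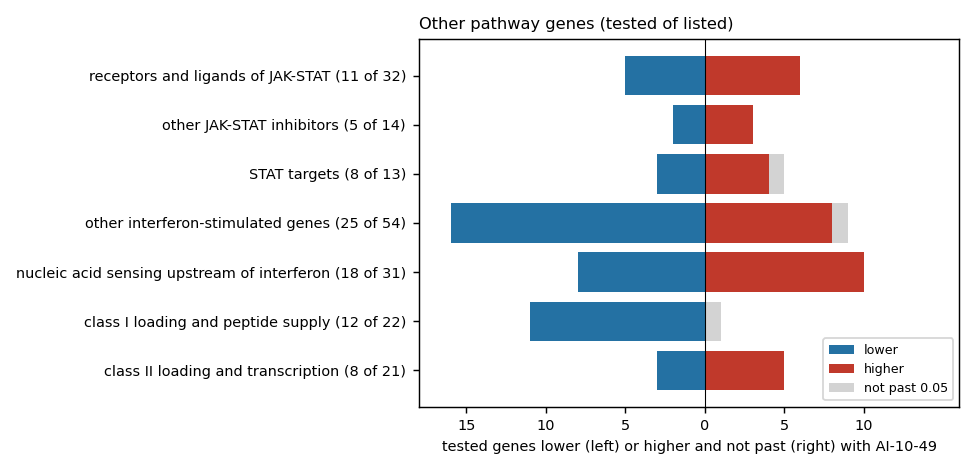
Number of tested genes of 7 pathway lists called lower with AI-10-49 (blue bars left of 0) and higher (red bars right of 0), those without a call added in grey on the right, with tested and listed genes in brackets. Class I loading and peptide supply has 11 lower and none higher of 12, and the other lists have genes on both sides.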

How the data were processed

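Per the submitters' processing notes, reads (90 bp, paired) were handled with Bowtie2 2.1.0, Cufflinks 2.2.0 and Cuffdiff on hg19. The role of each tool and the rule that selected the rows are not given in the sources used here. The authors' deposited table gives FPKM for 6339 rows and 6 libraries, and 198 rows name several genes. Per the labels, libraries were made with a TruSeq RNA kit. Whether strand was used is not stated, so a gene and an antisense partner cannot be told apart.

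Values were analysed as log2(FPKM + 1) with limma 3.58.1 in R 4.3.3 (mean-variance trend, two-sided, Benjamini-Hochberg over all 6230 tested rows, threshold 0.05). The filter left out 109 rows. The fit was tested on simulated data. Since FPKM are not counts, no count model was used. The prior spread was estimated on selected rows. The genes, lists, role groups and tests were chosen with earlier results of these data known. Every gene of the rule was to be described, and of each further list the 3 of largest change past the threshold. Alternatives were other pseudocounts, filters and scalings, no trend, the replicate block, a fold minimum and leaving out each library. Summaries used Python 3.11.15, pandas 2.3.3 and Matplotlib 3.10.9.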

Additional observations from a re-analysis of the deposited data

How the results depend on the processing

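Across 15 alternatives, 502 of 508 refitted fold changes of the 34 genes kept their direction and side of the threshold. The 6 exceptions were in HLA-DRA and HLA-C. HLA-DRA reversed to 0.0705 under quantile normalization and passed without AI-10-49 replicate 2. HLA-C reversed to 0.10 under quantile normalization without AI-10-49 replicate 2, an alternative chosen after seeing the data, and passed under the replicate block and without AI-10-49 replicate 1 or 3. The cause of these reversals was not tested. Quantile normalization moved the median of all rows by 0.22, to -0.06. Leaving out single libraries gave 13 genes higher each time and 19 to 20 lower, 35 to 37 list genes higher and 45 to 46 lower, and 2795 to 2892 rows higher and 2915 to 3175 lower. A minimum log2 fold change of 1 left 4 genes higher and 2 lower, 8 list genes higher and 4 lower, and 361 rows higher and 475 lower, since it removes small changes by construction. The replicate block gave 13 genes higher and 20 lower. Deviations of same-numbered libraries correlated at r = -0.15, 0.147 and 0.247 across rows, so the numbers were not taken as pairs. As FPKM carry no depth, only the spread between libraries limits what can be said of genes of low FPKM.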
